A study of Sus scrofa with 9 samples.

Results

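The 10 genes described here mark the cells that line the artery and carry the molecules with which leukocytes attach to them: VCAM1, ICAM1, SELE, SELP, PECAM1, CDH5, KDR, TEK, VWF and NOS3. They were chosen by gene name in a deposited table of 21357 genes, and 9 of the 10 were found under their names, each once. SELE was absent by name, and the gene with its NCBI gene number, listed only by identifier, is left out of every count over the 9 genes and is included where 10 genes or the 4 adhesion genes are named. The tissue was the abdominal aorta of the Tibetan minipig, a small pig breed, taken in the study near the lower end of that vessel. The 9 libraries fell into 3 groups of 3: NC, a normal diet for 24 weeks, H24, a high-fat diet for 24 weeks with the disease state given as atherosclerosis, and H8, the same kind of diet for 8 weeks with hypercholesterolemia as the disease state. The pigs of NC and H24 were males bought at 3 to 4 months and kept for 4 weeks before the diets, and 3 of 5 pigs per group were sequenced. In the study the diet of H24 was high in both fat and cholesterol, with shortening oil, cholesterol and egg yolk powder added to the basal feed. H8 is known only from the sample labels and has no normal-diet group of 8 weeks, so that in H8/NC diet and time on study cannot be told apart. In H24/H8 longer diet and longer time on study cannot be told apart either. Each library came from poly(A) RNA of a whole vessel piece, a mixture of cell types.

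The endothelium is a single cell layer between blood and vessel wall. Selectins such as SELE and SELP catch passing leukocytes, and VCAM1 and ICAM1 then hold them through integrins on the leukocyte surface. Inflammatory cytokines acting through NF-kB are known to raise SELE, VCAM1 and ICAM1, and attachment of monocytes to activated endothelium is an early step of atherosclerosis. PECAM1 and CDH5 hold neighbouring endothelial cells together, KDR and TEK receive growth signals, and VWF and NOS3 give the clotting glycoprotein and the nitric oxide synthase of these cells.

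Levels are given as FPKM, fragments scaled by transcript length and by the mapped fragments of the library, as the authors deposited them. Total estimated counts per library lay between 44094263 and 75787978, and the lowest member count by name was 311, for SELP in an H8 library. Fold changes come from edgeR's quasi-likelihood test on the counts, fitted on all tested genes of a comparison, with Benjamini-Hochberg adjustment over these genes. A gene was called up or down by the thresholds the study used, a log2 fold change beyond 1 with an unadjusted p under 0.05. In H24/NC 9.95% of all tested genes were up and 1.52% were down by these thresholds, in H8/NC 5.11% and 2.27%, and in H24/H8 7.22% and 3.05%. After adjustment, edgeR left 0% of genes in H24/NC, 0.0279% in H8/NC and 0.0135% in H24/H8. These counts rest on single libraries, since 306 genes passed in H24/NC without H24 replicate 3 in place of 0, and 37 in H8/NC without H8 replicate 2 in place of 4. Without adjustment 2055 genes had a p under 0.05 in H24/NC, and DESeq2, another count test, passed 1004 genes after adjustment there. One library stood apart: H24 replicate 3 had a median correlation of 0.863 with the other 8 libraries, against 0.947 to 0.959 for each of the others.

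Of the 9 genes found by name, VCAM1 and ICAM1 were up after 24 weeks of the high-fat diet and none was down. In H8/NC and in H24/H8 none of the 9 was called. The genes of endothelial identity, namely PECAM1, CDH5, KDR, TEK, VWF and NOS3, passed no threshold in any of the comparisons. SELE was called up in both H24/NC and H8/NC, with large differences between pigs of the same group, and the H8/NC call held in 9 of 15 alternatives. H24/NC and H8/NC share the NC libraries and are given side by side for that reason.

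**Figure D1:**
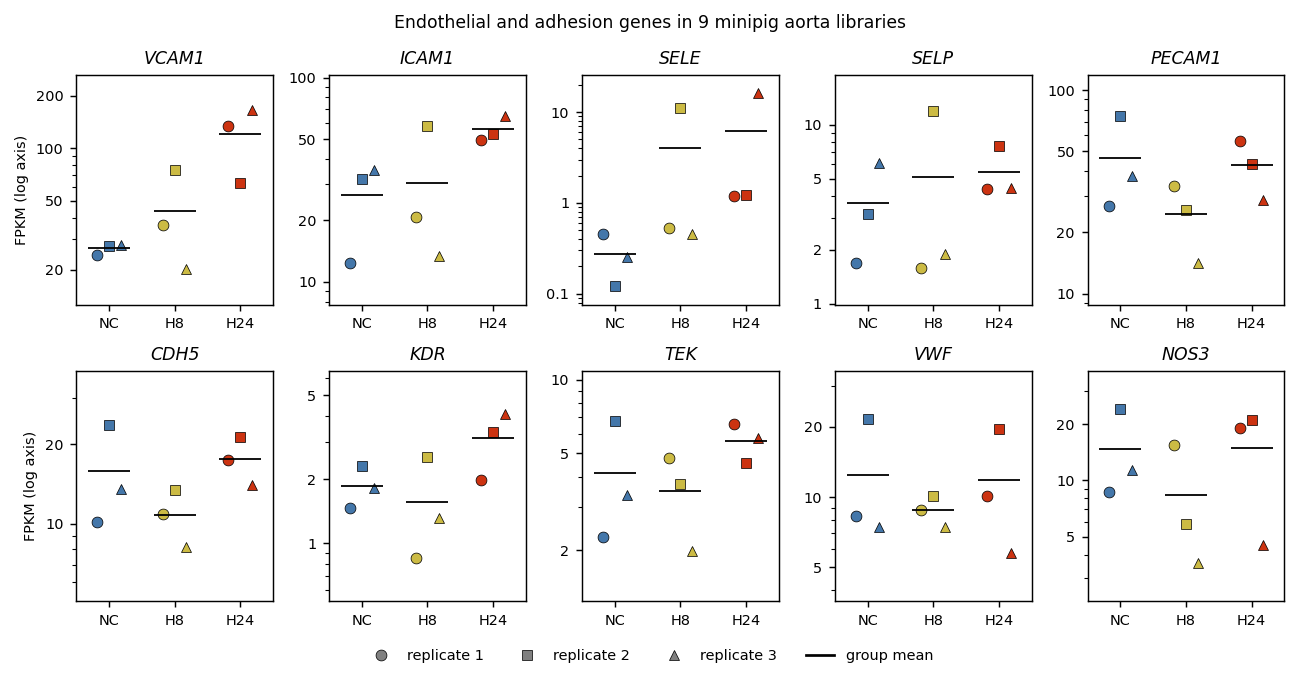
Expression of the 10 genes in each library, in FPKM on logarithmic axes that differ between panels, for NC, H8 and H24. Points are libraries, the shape gives the replicate number and the bar is the group mean of 3. VCAM1 and ICAM1 in all H24 libraries lie above all NC libraries, while NC replicate 2 is the highest of the 9 libraries in 5 of the 6 identity genes.

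VCAM1 encodes vascular cell adhesion molecule 1, the partner of integrin VLA-4 on monocytes and lymphocytes. Its gene lies on chromosome 4 at 117496917 to 117511211, minus strand (ENSSSCG00000006862), in Sscrofa11.1, the pig genome build of all positions given here. In NC replicates 1, 2 and 3 it read 24.5, 27.6 and 27.9 FPKM (26.6 ± 1.86, SD, n = 3). In the same replicate order H24 read 134, 63.5 and 166 FPKM (121 ± 52.4), and H8 read 36.0, 75.4 and 20.2 FPKM (43.9 ± 28.4). The H24 libraries thus lay above every NC library, and H8 had 2 libraries above NC and 1 below. In a piece of whole vessel, more or fewer cells of a type and more or less RNA per cell cannot be told apart.

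VCAM1 rose 4.45-fold in H24/NC, a log2 fold change of 2.15 (SE 0.37, 95% interval 1.29 to 3.02). The edgeR p was 0.000591 and its Benjamini-Hochberg adjusted p 0.132. DESeq2 gave the same size with an adjusted p of 2.81e-06, the only adjusted p under 0.05 that DESeq2 gave any of the 9 genes in these comparisons. Over 16 alternative analyses the log2 fold change stayed between 1.85 and 2.45, the gene was called in all 16, and the adjusted p ran from 2.81e-06 to 0.465. Without H24 replicate 3 it was 1.85 with an adjusted edgeR p of 0.0264. VCAM1 also had the most even level among the NC pigs, with a highest to lowest ratio of 1.14, against 1.58 to 3.76 for the other 9 genes.

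In H8/NC the log2 fold change of VCAM1 was 0.90 (SE 0.47, 95% interval -0.20 to 1.998, edgeR adjusted p 0.415). It was called without H8 replicate 3, at 1.27, and was 0.15 without H8 replicate 2, the library with the highest value of its group. In H24/H8 it was 1.21 (SE 0.58, 95% interval -0.15 to 2.58, edgeR adjusted p 0.392). There 7 of 16 alternatives called it, among them DESeq2 at 1.23 and limma on log2(FPKM + 0.1) at 1.56. The 3 groups therefore ordered NC, H8, H24 by mean, and of the neighbouring pairs in that order neither differed past the threshold.

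ICAM1, intercellular adhesion molecule 1, binds the integrins LFA-1 and Mac-1 of leukocytes. It lies on chromosome 2 at 69097009 to 69108205, plus strand (ENSSSCG00000013655). The NC replicates read 12.4, 32.1 and 35.2 FPKM, the H8 replicates 20.7, 57.7 and 13.4 FPKM, and the H24 replicates 49.7, 52.9 and 64.7 FPKM. Group means were 26.5 ± 12.4, 30.6 ± 23.8 and 55.8 ± 7.90 FPKM (SD, n = 3). All H24 libraries lay above all NC libraries, and H8 overlapped both groups.

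The log2 fold change of ICAM1 in H24/NC was 1.04 (SE 0.41, 95% interval 0.08 to 2.004, edgeR p 0.0371, adjusted p 0.331). The call sits at the threshold of fold change, and 5 of 16 alternatives lost it. Those were the fit of all 9 libraries together, with an unadjusted edgeR p of 0.101, and the fits without NC replicate 1 (0.69) or without H24 replicate 1 (1.14), 2 (1.06) or 3 (0.92). In H8/NC the value was 0.39 (95% interval -1.08 to 1.86) and it turned to -0.57 without H8 replicate 2. In H24/H8 it was 0.62 (95% interval -0.72 to 1.97).

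VCAM1 and ICAM1 were also the 2 of 9 genes whose FPKM did not overlap between H24 and NC, both higher. Among all genes tested in H24/NC 12.8% were higher without overlap and 7.8% were lower. In H8/NC none of the 9 separated, where 6.91% of all genes were higher and 15.9% lower without overlap. In H24/H8 only CDH5 separated, where 15.5% of all genes were higher and 6.31% lower. With 3 libraries against 3 an exact permutation test cannot go below p = 0.1.

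SELE encodes E-selectin, which in most vessels is made by endothelium after exposure to cytokines. The gene taken as SELE has the identifier ENSSSCG00000006286, the description selectin E and NCBI gene number 397508. It spans 69293 bases of chromosome 4, from 81229970 to 81299262 on the plus strand, while RefSeq gives SELE 10597 bases. Both lengths are genomic spans, while FPKM is scaled by transcript length, which a span does not give. The SELE model also overlaps an unnamed gene of the same strand, so its FPKM should be set against other genes with caution. That unnamed gene had a mean of 0.315 FPKM over the 9 libraries, while SELE in NC ranged from 0.122 to 0.458 FPKM. The part of the overlap in the SELE levels and fold changes was not tested.

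The SELE level in NC replicates 1 to 3 was 0.458, 0.122 and 0.251 FPKM. In H8 it was 0.534, 11.2 and 0.455 FPKM, and in H24 it was 1.18, 1.22 and 16.2 FPKM. A single library of each diet group, H8 replicate 2 and H24 replicate 3, carried most of the signal of its group. The highest of the 9 libraries exceeded the lowest 133-fold, against 8.21-fold for VCAM1.

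In H24/NC SELE rose with a log2 fold change of 4.48 (SE 1.22, 95% interval 1.598 to 7.37, edgeR adjusted p 0.183), and its groups did not overlap. Without H24 replicate 3 the value was 2.10 and still called. It was called in 14 of 15 alternatives and lost with limma on log2(FPKM + 1), at 1.78. In H8/NC it was 4.12 (SE 1.38, 95% interval 0.89 to 7.35, edgeR adjusted p 0.258), with groups that overlapped. Without H8 replicate 2 it was 0.92 and no longer called. The call was also lost without NC replicate 2 (3.77) or 3 (4.06), with a replicate block (2.16) and with limma on log2(FPKM + 0.1) (2.17) or log2(FPKM + 1) (1.24). DESeq2 withheld a p for SELE in both comparisons because of its outlying counts.

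SELP encodes P-selectin, which platelets and endothelial cells store and move to their surface on activation. It lies downstream of the SELE model on chromosome 4, at 81372749 to 81401289, plus strand (ENSSSCG00000006288). The replicates read 1.68, 3.18 and 6.14 FPKM in NC, 1.58, 11.9 and 1.90 FPKM in H8, and 4.37, 7.58 and 4.45 FPKM in H24. H8 replicate 2 was the highest library, and the groups overlapped in every comparison.

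The SELP log2 fold change was 0.56 in H24/NC (95% interval -0.64 to 1.76) and 0.70 in H8/NC (95% interval -1.33 to 2.73), neither past the threshold. In H24/H8 it was -0.16 (95% interval -2.11 to 1.79), a sign that turned under scaling by library size. Without H8 replicate 2 it was -1.005 in H8/NC and 1.54 in H24/H8. The summed level of platelet markers (5 of 6 found) was 12.0 to 13.9 FPKM in NC, 6.28 to 10.3 FPKM in H8 and 9.36 to 12.2 FPKM in H24, with PPBP at 0 in 5 libraries and GP1BB at 0 in the 3 H8 libraries. The part of platelets in the SELP values was not tested.

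**Figure D2:**
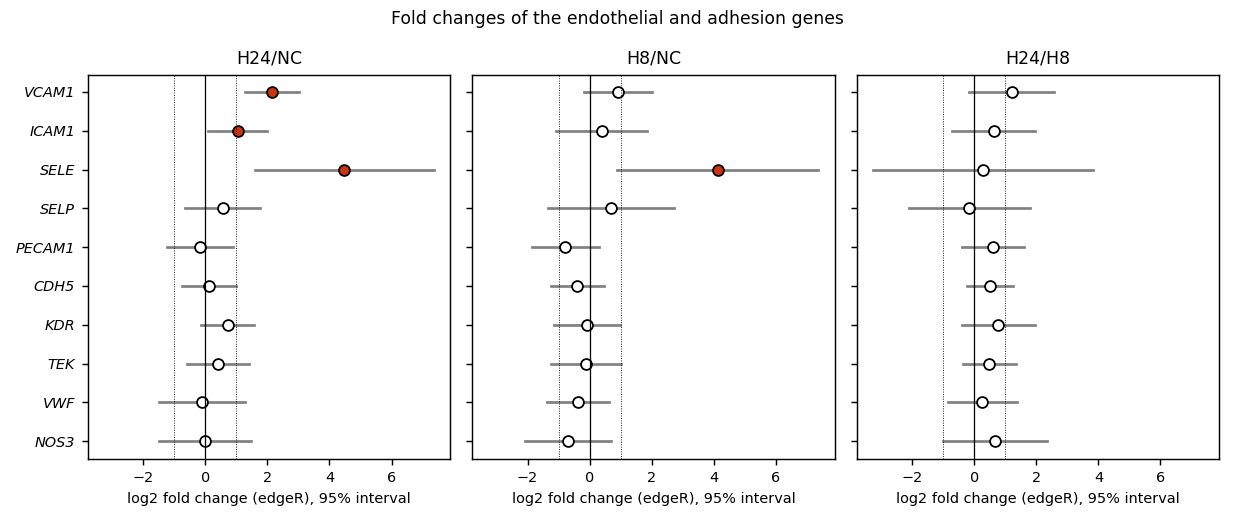
Log2 fold changes of the 10 genes from edgeR, with 95% intervals, for H24/NC, H8/NC and H24/H8. Filled points passed a log2 fold change beyond 1 (dotted lines) with an unadjusted p under 0.05. Filled are VCAM1 at 2.15, ICAM1 at 1.04 and SELE at 4.48 in H24/NC and SELE at 4.12 in H8/NC, and the intervals of all 6 identity genes cross 0.

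PECAM1, also called CD31, joins endothelial cells at their borders and is present on platelets and leukocytes too. It lies on chromosome 12 at 14636641 to 14723293, plus strand (ENSSSCG00000017277), and its start overlaps MILR1 of the other strand (mean 0.472 FPKM). The replicates read 26.9, 74.5 and 37.7 FPKM in NC, 33.9, 25.9 and 14.1 FPKM in H8, and 56.3, 43.4 and 28.7 FPKM in H24. The widest gap was within NC, whose replicate 2 was the highest of all libraries. The log2 fold change was -0.16 in H24/NC (95% interval -1.22 to 0.90), -0.78 in H8/NC (-1.86 to 0.30) and 0.60 in H24/H8 (-0.38 to 1.59).

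CDH5 encodes VE-cadherin, the cadherin of endothelial adherens junctions, largely restricted to endothelium. Its position is chromosome 6, 27108499 to 27142921, plus strand (ENSSSCG00000035772). NC read 10.1, 23.7 and 13.5 FPKM, H8 10.9, 13.4 and 8.16 FPKM, and H24 17.4, 21.2 and 14.0 FPKM. All H24 libraries were above all H8 libraries, and the NC range took in all of H24 and 2 of the 3 H8 libraries. The log2 fold change was 0.12 in H24/NC (95% interval -0.75 to 0.99), -0.40 in H8/NC (-1.26 to 0.45) and 0.51 in H24/H8 (-0.23 to 1.25, edgeR adjusted p 0.484).

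KDR is the main signalling receptor for VEGF-A on endothelium, on chromosome 8 at 41809115 to 41856379, minus strand (ENSSSCG00000008844). It read 1.47, 2.32 and 1.81 FPKM in NC, 0.853, 2.54 and 1.31 FPKM in H8, and 1.998, 3.34 and 4.07 FPKM in H24. Of the identity genes it was the one whose highest library was in H24, and its value in the lowest H24 library lay below NC replicate 2. The log2 fold change of KDR was 0.73 in H24/NC (SE 0.36, 95% interval -0.12 to 1.57, edgeR p 0.0825, adjusted p 0.433), -0.08 in H8/NC and 0.78 in H24/H8 (95% interval -0.41 to 1.97).

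TEK, the receptor for angiopoietins also known as TIE2, lies on chromosome 1 at 195937431 to 196052751, minus strand (ENSSSCG00000005122). It read 2.25, 6.78 and 3.35 FPKM in NC, 4.77, 3.72 and 1.98 FPKM in H8, and 6.56, 4.54 and 5.77 FPKM in H24. The highest value was in NC replicate 2, and the NC range took in all H24 libraries. TEK had log2 fold changes of 0.40 (95% interval -0.60 to 1.40), -0.11 (-1.24 to 1.01) and 0.49 (-0.36 to 1.34) in H24/NC, H8/NC and H24/H8.

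VWF, von Willebrand factor, is stored in endothelial cells and megakaryocytes and binds platelets at sites of injury. It lies on chromosome 5 at 64517481 to 64678840, plus strand (ENSSSCG00000000712). It read 8.34, 21.7 and 7.44 FPKM in NC, 8.81, 10.1 and 7.42 FPKM in H8, and 10.1, 19.6 and 5.75 FPKM in H24. H24 replicate 3, with the highest VCAM1, ICAM1 and SELE, had the lowest VWF of the 9 libraries. The log2 fold changes of VWF were -0.11 in H24/NC (95% interval -1.50 to 1.27), -0.37 in H8/NC (-1.38 to 0.64) and 0.26 in H24/H8 (-0.86 to 1.37).

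NOS3 encodes endothelial nitric oxide synthase, whose product relaxes the vessel, and lies on chromosome 18 at 6205512 to 6228967, minus strand (ENSSSCG00000016450). Its end overlaps ATG9B of the other strand, which had a mean of 0.0499 FPKM. It read 8.63, 24.1 and 11.4 FPKM in NC, 15.5, 5.87 and 3.61 FPKM in H8, and 19.1, 21.1 and 4.49 FPKM in H24. In H8 and in H24 the libraries lay further apart than in NC, where the highest to lowest ratio was 2.79. The log2 fold change of NOS3 was -0.02 in H24/NC (95% interval -1.50 to 1.46), -0.71 in H8/NC (-2.08 to 0.67) and 0.68 in H24/H8 (-0.99 to 2.35). In H24/NC its sign turned under scaling by library size, at 0.03, and without H24 replicate 3, at 0.42. In H8/NC it was called down without H8 replicate 1, at -1.48.

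Wide intervals mean that moderate differences of the identity genes were not detectable with 3 pigs per group. The median log2 fold change of the 9 genes was 0.40 in H24/NC, -0.11 in H8/NC and 0.60 in H24/H8, against 0.01, 0.01 and 0.04 over all tested genes. Of the 9, 6, 3 and 8 were higher in the first-named group, in that order of comparisons. Without NC replicate 2, the highest library in 5 of the 6 identity genes, all of these were higher in H24/NC and none was called. TEK stood at 0.997 (edgeR p 0.0210, adjusted p 0.412), KDR at 0.94, VWF at 0.59, NOS3 at 0.57, CDH5 at 0.57 and PECAM1 at 0.40. Without NC replicate 1, PECAM1 (-0.45), VWF (-0.35), NOS3 (-0.30) and CDH5 (-0.13) were lower, and KDR (0.57) and TEK (0.096) higher.

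H8 replicate 2 bears on the comparison of the diet groups with each other. Without it, VCAM1 (1.96), ICAM1 (1.58), SELP (1.54) and KDR (1.42) were called up in H24/H8, 4 of the 9 genes in place of none. SELE was also called, at 3.49. All 5 had an edgeR adjusted p of 0.663, and 3.73% of all genes were up in that comparison. In H8/NC without this library 4.11% of all genes were up and none of the 9 was. In H24/NC without H24 replicate 3, 6.49% of all genes were up, and of the 9 genes VCAM1 alone.

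Ordered by mean FPKM over the 9 libraries, VCAM1 stood at 63.9, PECAM1 at 37.9, ICAM1 at 37.6, CDH5 at 14.7 and NOS3 at 12.6. VWF followed at 11.02, SELP at 4.75, TEK at 4.41, SELE at 3.51 and KDR at 2.19 FPKM. Neighbours in this order overlapped over the libraries. In NC alone PECAM1, at 46.4 ± 25.0 FPKM, had the highest mean, and VCAM1 and ICAM1 were nearly level at 26.6 and 26.5 FPKM.

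To compare the adhesion genes at a given amount of endothelial transcript, each was divided by the CDH5 level of its own library. VCAM1 per CDH5 was 2.42, 1.17 and 2.06 in NC, 3.32, 5.64 and 2.48 in H8, and 7.69, 2.99 and 11.9 in H24. Both diet groups lay above NC without overlap, by 1.85 on the log2 scale for H24 and by 0.999 for H8. In H8 this gap was narrow, from 2.42 in NC replicate 1 to 2.48 in H8 replicate 3. That H8 library had the lowest VCAM1 and the lowest CDH5 of the 9 libraries. SELE per CDH5 was also higher without overlap in both, by 3.34 and 3.02. For SELE the gap was narrow in both, since the highest NC ratio was 0.0452 and the lowest ratios were 0.0572 in H24 and 0.0492 in H8. VCAM1 and SELE themselves, not divided by CDH5, overlapped between H8 and NC. The H24 value of SELE was 1.94 without H24 replicate 3, and its H8 value was 1.68 without H8 replicate 2. ICAM1 (0.98 and 0.55) and SELP (0.50 and 0.53) were higher in the mean but overlapped NC. Without H8 replicate 2 the H8 values were 0.12 for ICAM1 and -0.23 for SELP, and without NC replicate 2 those of SELP were 0.16 for H24 and 0.18 for H8. VCAM1 in H8 was 0.67 without H8 replicate 2 and 0.69 without NC replicate 2. For all tested genes, the FPKM per CDH5 was higher without overlap in 5.67% in H24/NC and 9.04% in H8/NC. In H24/H8 that share was 1.84%, and none of the 4 adhesion genes separated. With PECAM1 in place of CDH5, VCAM1 kept its separation in both comparisons (2.11 and 1.39), and SELE per PECAM1 overlapped in H8/NC. No test was run on the ratios, and VCAM1, ICAM1 and PECAM1 can come from cells other than endothelium.

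**Figure D3:**
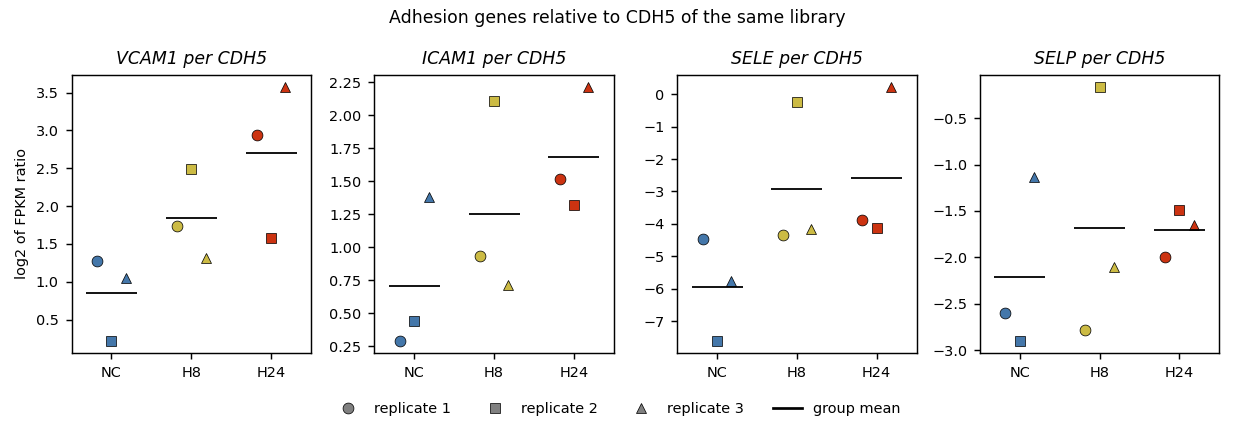
VCAM1, ICAM1, SELE and SELP relative to CDH5 of the same library, as log2 of the FPKM ratio, with axes that differ between panels. Points are libraries, shapes are replicate numbers and bars are means of 3. For VCAM1 and SELE, all H8 and all H24 libraries lie above all NC libraries, while ICAM1 and SELP overlap NC. The gap is narrow for SELE and for VCAM1 in H8.

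Correlations of log2(FPKM + 0.1) between the genes are given as descriptions over 9 libraries, which include the 3 diet groups. Among the 6 identity genes the 15 pairs had a median r of 0.665, from -0.034 for KDR and NOS3 to 0.892 for PECAM1 and NOS3. PECAM1 had r = 0.883 with CDH5 and 0.81 with TEK, and CDH5 had r = 0.774 with VWF. Among the 4 adhesion genes the 6 pairs had a median r of 0.718, from 0.522 for VCAM1 and SELP to 0.843 for ICAM1 and SELP. VCAM1 had r = 0.826 with ICAM1 and 0.795 with SELE. The 24 pairs of an adhesion gene with an identity gene had a median r of 0.228, from -0.502 for SELE and NOS3 to 0.797 for ICAM1 and KDR. SELP and KDR (0.712), ICAM1 and TEK (0.702) and ICAM1 and CDH5 (0.668) were also high. So were VCAM1 and KDR (0.65) and VCAM1 and TEK (0.627). With CDH5, SELP had r = 0.514, VCAM1 0.374 and SELE -0.018. These values depended on H24 replicate 3 and H8 replicate 2, without which the medians were 0.805, 0.628 and 0.512 in the same order and SELE and NOS3 had r = 0.106. NC replicate 2 was the highest library in 5 of the 6 identity genes, H24 replicate 3 in 3 of the 4 adhesion genes, and H8 replicate 2 was first or second in 3 of the 4.

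Among 10735 named genes with a mean of at least 1 FPKM, those closest to CDH5 over the 9 libraries were RGS3 (r = 0.983), ITPR3 (r = 0.966) and TMEM204 (r = 0.958). RGS3 is a regulator of G protein signalling and ITPR3 an intracellular calcium channel. Those closest to VCAM1 were CEP350 (r = 0.969), a centrosomal protein, RUNX1 (r = 0.963), a transcription factor of blood cell formation, and DIP2B (r = 0.953). Of 29 other genes of endothelial identity, 12 (41.4%) had r of at least 0.7 with CDH5, as did 1.67% of all genes. With VCAM1, 3 of the 29 (10.3%) did, as did 9.04% of all genes. Without H24 replicate 3 none of the 29 did, against 3.77% of all genes, while their median r with VCAM1 was 0.471 in place of 0.285.

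A wider list held 32 further endothelial genes. Of these, 30 were found and 29 tested. In H24/NC ICAM2 (2.79), ENG (1.43) and FLI1 (1.37) were up and none was down, which is 10.3% of the list beside 9.95% of all genes, with a list median of 0.19. Leaving out H24 replicate 3 gave 2 up and a median of 0.42. ENG is a co-receptor for TGF-beta family ligands, and ICAM2 and the transcription factor FLI1 are also known from leukocytes and platelets. In H8/NC none was called in either direction and the median was -0.16, and without H8 replicate 2 there was 1 down and a median of -0.45. In H24/H8 RAMP2 (1.23), a partner of the adrenomedullin receptor, ICAM2 (2.27) and ENG (1.17) were up, beside 7.22% of all genes, with a median of 0.45. That median was 0.73, with 2 up, without H8 replicate 2. Taken by library, the median of these 29 genes against the NC mean was -0.26, 0.50 and -0.20 in the NC replicates, -0.10, -0.04 and -0.59 in H8, and 0.21, 0.50 and -0.04 in H24. NC replicate 2 and H24 replicate 2 were thus the libraries with the highest median and H8 replicate 3 the lowest.

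Endothelial subtypes were read from shorter lists. Over all tested genes 9.95% were up in H24/NC, 7.22% were up in H24/H8 and 2.27% were down in H8/NC. Of 7 arterial genes none was called in H24/NC or H24/H8, and the gap junction gene GJA4 was down in H8/NC (-1.22), with list medians of -0.15, 0.27 and -0.38 for H24/NC, H24/H8 and H8/NC. The arterial median turned to 0.21 in H24/NC without H24 replicate 3, and was then 0.53 in H24/H8 with 1 gene up. Of 3 venous genes tested none was called in any comparison, with medians of -0.25, -0.07 and -0.43 in the same order. The venous median in H24/H8 turned to 0.31 without H24 replicate 3, and 1 venous gene was down in H8/NC without H8 replicate 2. Of 5 lymphatic genes tested, the chemokine CCL21 was up in H24/NC (1.95) and the receptor FLT4 in H24/H8 (1.16), with medians of 0.39 and 1.16. None was called in H8/NC, where the median was -0.39. None of the lymphatic genes was up in H24/H8 without H24 replicate 3, and the H24/NC median was then 0.21. Leaving out H8 replicate 2 gave 2 up in H24/H8 and 1 down in H8/NC.

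Further adhesion molecules of endothelium and leukocytes formed a list of 14. Of 14 tested in H24/NC, ICAM3 and ICAM2, which the endothelial list also holds, were up, and the list median was 0.29. The share of all genes up was 9.95% there and 7.22% in H24/H8. ICAM3, a leukocyte adhesion molecule, had no count in any NC library and 33 to 418 counts in H24, at least 63.0-fold higher against a floor of 3 counts per library and at least 16.7-fold without H24 replicate 3. In H8/NC none of 13 was called (median 0.18, and -0.04 without H8 replicate 2). In H24/H8 ICAM2 and ICAM3 (4.33) were the 2 of 14 up, with a median of 0.09. None of the 14 was up without H24 replicate 3, where the median was -0.01, and without H8 replicate 2 there was 1 up and a median of 0.61.

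Most leukocyte receptors that bind the adhesion genes were up after 24 weeks. Of 12 listed, 10 were found and tested in H24/NC, and 7 were up with none down (median 2.87). The share of all genes up was 9.95% there, 5.11% in H8/NC and 7.22% in H24/H8. ITGAM (5.43) and ITGB2 (5.05) form Mac-1, a ligand of ICAM1, ITGAL (2.29) pairs with ITGB2 in LFA-1, and ITGB7 (3.13) is a partner of the VCAM1-binding chain ITGA4. ITGAM is also one of the macrophage markers given below. ITGB2 read 1.12, 1.15 and 1.14 FPKM in NC, 6.40, 1.32 and 3.83 FPKM in H8, and 11.6, 7.16 and 95.8 FPKM in H24. Without H24 replicate 3, 5 of the 10 were up, 2 of them after adjustment, and the median was 1.08. In H8/NC 4 of 9 were up, among them ITGB2 (1.86), the hyaluronan receptor CD44 (1.19) and ITGAM (2.30), with a median of 1.002. Only 2 were up without H8 replicate 2, and 2 passed adjustment. In H24/H8 6 of 10 were up (median 2.15). Without H24 replicate 3 none was up and 1 was down (median 0.55), and without H8 replicate 2 none was called (median 1.98).

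Cytokines and factors that act on the adhesion genes were also called in part. Of 13 tested in H24/NC, IRF1 (1.72), TNF (2.49), IL1B (2.29) and TNFAIP3 (1.95) were up, with a median of 0.37. The share of all genes up was 9.95% there and 5.11% in H8/NC. In H8/NC 6 of 13 were up, among them IL1B (2.30), KLF4 (1.54), TNFAIP3 (2.05) and TNF (1.88), with a median of 1.17. Without H8 replicate 2 only 2 were up and the median was 0.41. In H24/H8 KLF4, a transcription factor of flow-exposed endothelium, was down (-1.47) and none was up (median -0.09). The KLF4 call was lost without H8 replicate 2, where 1 gene was up and the median turned to 0.19, and without H24 replicate 3 the median was -0.42. TNF and IL1B stayed under 1 FPKM in all 9 libraries. IRF1, an interferon-responsive transcription factor, read 5.69, 9.48 and 10.3 FPKM in NC, 9.23, 46.8 and 10.9 FPKM in H8, and 24.9, 14.8 and 45.7 FPKM in H24. Its highest libraries were H8 replicate 2 and H24 replicate 3, those with the highest SELE.

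Of 22 ligands and regulators of the receptors, junction and NOS3, VEGFA (1.69) and its co-receptor NRP1 (1.59) were up in H24/NC, with a median of 0.19. The share of all genes up was 9.95% there, 5.11% in H8/NC and 7.22% in H24/H8. Leaving out H24 replicate 3 gave 4 of the 22 up and a median of 0.30. VEGFA, the ligand of KDR, read 6.28, 8.75 and 8.09 FPKM in NC, 15.4, 30.8 and 21.0 FPKM in H8, and 12.1, 35.5 and 27.6 FPKM in H24. It was the one gene of this list called in H8/NC (1.69, median 0.04), and its H8 and H24 libraries all lay above NC. In H24/H8 F8 (1.09), the clotting factor carried by VWF, and NRP1 (1.35) were up, with a median of 0.20 that was 0.40 without H24 replicate 3. CAV1, the caveolin that binds NOS3, stood at -0.69 in H8/NC with an unadjusted edgeR p of 0.00229, short of the fold threshold.

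**Figure D4:**
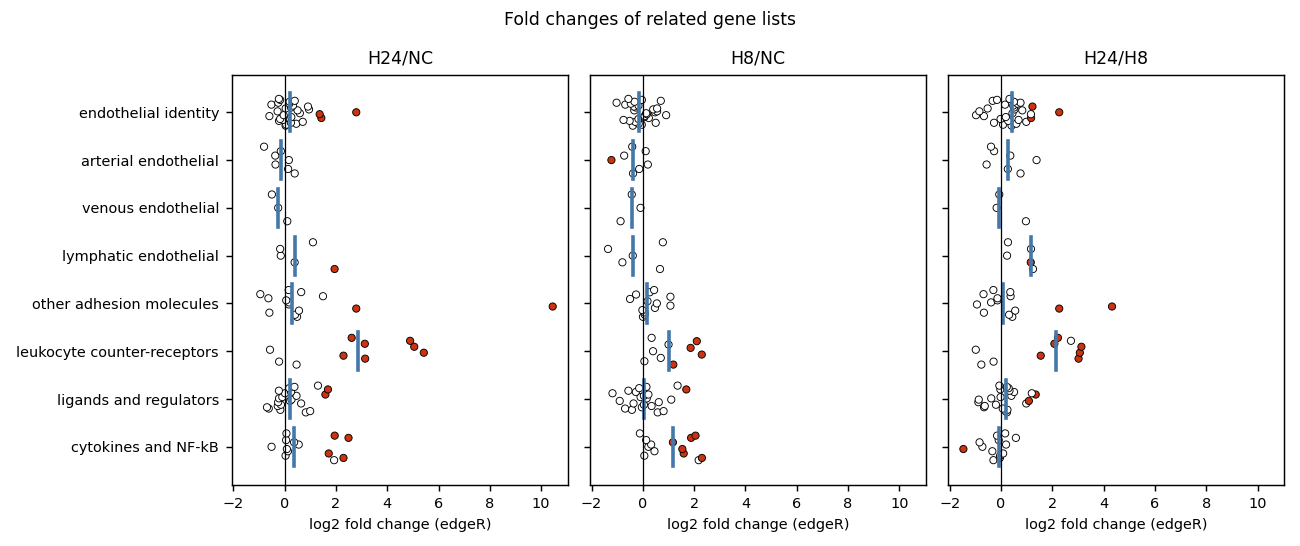
Log2 fold changes from edgeR of each tested gene in 8 related lists, for H24/NC, H8/NC and H24/H8. Each point is a gene, filled points passed a log2 fold change beyond 1 with an unadjusted p under 0.05, and blue bars are list medians. The leukocyte counter-receptors have medians of 2.87, 1.002 and 2.15, and the endothelial identity list has medians of 0.19, -0.16 and 0.45. Over all tested genes the medians are 0.01, 0.01 and 0.04. The point far to the right in H24/NC is ICAM3, whose fitted value depends on a prior count since its NC counts are 0.

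The summed levels of markers of other cell types differed between libraries and groups. All 6 macrophage markers were found, and their summed level was 14.7 to 16.4 FPKM in NC, 80.0, 12.9 and 43.2 FPKM in H8 replicates 1 to 3, and 142, 82.0 and 941 FPKM in H24, with none at 0. T cell markers (5 of 5 found) summed to 0.165 to 0.362 FPKM in NC, 0.655 to 0.865 FPKM in H8 and 3.21 to 17.1 FPKM in H24, with CD3G at 0 in 2 NC libraries and CD3D in 1. B cell markers (5 of 5) ranged over 5.07 to 5.75, 1.36 to 3.68 and 9.56 to 11.5 FPKM in NC, H8 and H24, with MS4A1 at 0 in 5 libraries and PAX5 in 3. Only 2 of these were tested in H24/NC, CD79A (0.97) and CD79B (-2.10), which went opposite ways and were not called. Both were lower in H8/NC without a call, and in H24/H8 only CD79A was tested and was up (1.91). H8 replicate 2 had the lowest macrophage sum of all 9 libraries together with the highest SELP and the second highest ICAM1 and SELE. H24 replicate 3 had the highest macrophage sum and the highest VCAM1, ICAM1 and SELE. The part of these cells in the VCAM1 and ICAM1 values was not tested.

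**Figure D5:**
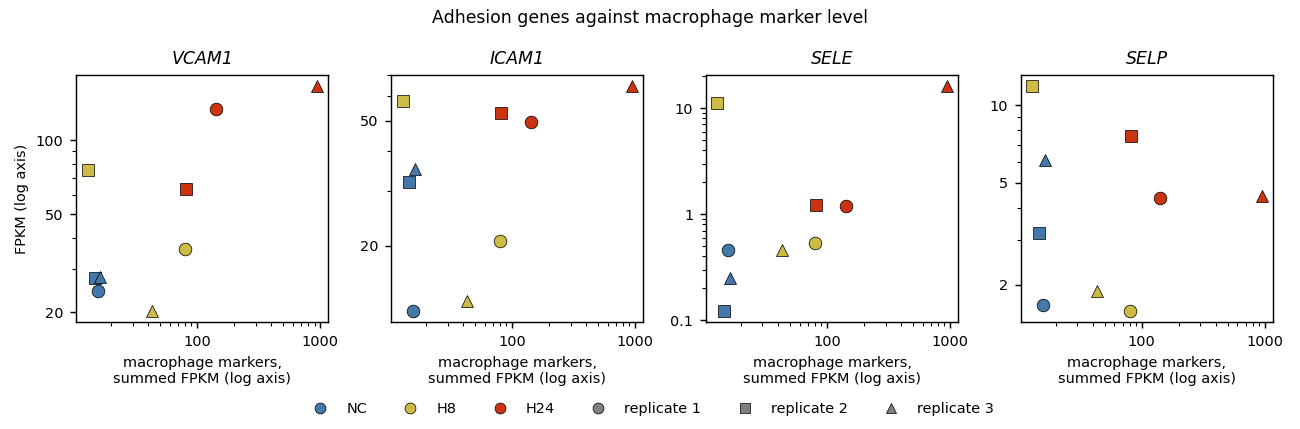
FPKM of VCAM1, ICAM1, SELE and SELP against the summed FPKM of 6 macrophage markers in the 9 libraries, on logarithmic axes. Colours are groups and shapes are replicate numbers. H8 replicate 2 (yellow square) lies at the left, with 12.9 FPKM of macrophage markers, and is the highest library for SELP and the second highest for ICAM1 and SELE.

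The labelled tissue was checked by its main cell type. The 6 smooth muscle markers, all found and none at 0, were high in every library, with sums of at least 9393 FPKM in NC and H8. In H24 the lowest sum was 1625 FPKM, in replicate 3. The extraction text of the labels speaks of an adipose type, and adipocyte markers (5 of 5 found) summed to 89.7 to 157 FPKM in NC, 49.1 to 140 FPKM in H8 and 57.2 to 106 FPKM in H24, with PLIN1 at 0 in 1 H8 library. In H8/NC ADIPOQ (-6.39, edgeR adjusted p 0.0207), PLIN1 (-7.57) and CIDEC (-1.64) were down among the 4 tested, and FABP4 (-0.06) was not. In H24/H8 4 of 5 were up. Over all tested genes 2.27% were down in H8/NC and 7.22% up in H24/H8. In H24/NC only LEP was up (2.53) and none was called down, with PLIN1 at -2.22, ADIPOQ at -1.82, FABP4 at -0.38 and CIDEC at 0.89. The part of this shift in the H8 values of the endothelial genes was not tested. Fibroblast markers (5 of 5) summed to 958 to 1156 FPKM in NC, 1451 to 2040 FPKM in H8 and 1284 to 1430 FPKM in H24. Erythroid markers (4 of 5 found) ranged from 19.5 to 253 FPKM over all libraries, with AHSP at 0 in 3. Markers of lymphoid stroma (3 of 5 found) ranged from 50.8 to 92.7 FPKM in H8 and H24 and from 71.3 to 93.1 FPKM in NC, with CXCL13 at 0 in 3 libraries.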

How the data were processed

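The authors mapped reads with HISAT 2.0 to the pig genome and computed FPKM with StringTie 1.3.0. The deposited table holds these FPKM values and an estimated count per gene and library, all whole numbers, whose derivation and annotation release are not given in the sources used here. The labels also list Bowtie 0.12.2 and a mouse build, whose role is not given in the sources used here.

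The 10 genes, the related lists and the marker lists were chosen with earlier results of these data known. All 10 were named in every comparison, and of each other list at most 4 genes per comparison with the smallest p. The gene taken as SELE was found by NCBI gene number in RefSeq's Sscrofa11.1 table, as were other list genes without a name (103 of 108 list genes were found). Counts were tested with edgeR 4.0.16 in R 4.3.3 (TMM scaling, quasi-likelihood, trended dispersion, mean FPKM of at least 0.1 in the libraries compared), with the 2 groups of a comparison only. No library pair of a group agreed within counting noise. Alternatives used DESeq2 1.42.0, limma 3.58.1 on log2(FPKM + 0.1) and log2(FPKM + 1), median-ratio scaling, scaling by library size, other filters, a replicate block, a fit of all 9 libraries together, and each replicate left out. A newer dispersion method of edgeR was added after the data were seen. Replicate numbers did not pair the pigs. P-values rest on the spread between the 3 libraries of each group, which edgeR draws towards a trend over all tested genes. The script was tested on simulated data. A floor of 3 counts equals 0.0396 to 0.0680 CPM in these libraries, and covers counting error only. Values of some listed genes are not reported here.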

Additional observations from a re-analysis of the deposited data

How the results depend on the processing

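With 3 pigs per group the spread between pigs limits these results. Of the values of the 10 genes, SELE included, under the alternatives, 423 kept direction and side of the threshold and 30 turned direction. Without turning, 12 lost a call and 12 gained one. The 30 include SELP in H24/H8 without H8 replicate 2, which turned and was called. The number of the 9 genes called in H24/NC fell from 2 to 1 in the fit of all 9 libraries. In H24/H8 it rose from 0 to 1, VCAM1 each time, with DESeq2, scaling by library size, all 9 libraries in one fit, and limma with a pseudocount of 0.1 or of 1. With each replicate left out in turn, called genes numbered 1 to 2 in H24/NC, 0 to 1 in H8/NC and 0 to 4 in H24/H8. Genes without overlap numbered 2 to 5, 0 to 2 and 1 to 5 in the same order. Groups separate more easily with a library left out, and the share over all genes was not computed there. The cause of these moves was not tested.

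Reversals with a replicate left out fell on values that were not called, with one exception. The log2 fold changes then ranged in H24/NC over -0.45 to 0.40 for PECAM1, -0.13 to 0.57 for CDH5, -0.72 to 0.59 for VWF and -0.39 to 0.57 for NOS3. In H8/NC they ranged over -0.57 to 0.77 for ICAM1, -1.005 to 1.27 for SELP, -0.67 to 0.046 for CDH5, -0.73 to 0.22 for KDR, -0.42 to 0.48 for TEK and -0.65 to 0.33 for VWF. In H24/H8 they ranged over -2.03 to 3.49 for SELE, -0.60 to 1.54 for SELP and -0.39 to 0.59 for VWF. The ratio of SELP to CDH5, H8 minus NC on the log2 scale, ranged over -0.23 to 1.07. The exception was SELP in H24/H8, called at 1.54 without H8 replicate 2.

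Among the other alternatives, NOS3 in H24/NC turned to 0.027 when scaled by library size and to 0.0051 with a filter at a mean of 1 FPKM. SELP in H24/H8 turned to 0.11 when scaled by library size, 0.65 with limma at a pseudocount of 0.1 and 0.46 at 1. Scaling by library size moved the median of all genes by -0.15 in H8/NC and 0.19 in H24/H8.

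Replicate numbers were no pairs in the data, since the correlations of same-numbered deviations ran from -0.050 to 0.092. With the replicate block 2, 0 and 0 of the 9 genes were called in H24/NC, H8/NC and H24/H8. SELE in H8/NC lost its call at 2.16, and SELP in H24/H8 turned to 0.52.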
